A study of Mus musculus with 4 samples.

Results

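The accessible regions described here are the narrowest ones on chromosomes 1 to 19, called narrow below. They were chosen by width alone, as regions of at most 0.251 kb from start to end, and number 26335 of the 84476 regions of the series (31.2%). All 26335 have this same width. No region on these chromosomes lies between it and 313 bp, where the next wider ones begin, so the bound falls into an empty gap. The narrow regions are set beside the 53121 wider regions of under 2000 bp on the same chromosomes, called mid-width below (median width 509 bp).

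ATAC-seq libraries were made from regulatory T cells of the NOD strain, in which autoimmune diabetes arises without induction. There are 2 libraries of each genotype, Flicr KO, in which the gene was knocked out, and Flicr WT, in which it was not. All mice were males aged 8 to 10 weeks. Their spleens and lymph nodes gave 50000 cells per library, sorted for CD4, TCRβ and the brightest 50% of the CD25-high gate. The sources used here do not say where Flicr was deleted or whether replicates came from separate mice. The p-values therefore refer to the spread of these libraries alone, and that spread may be technical. Regions are given by position on mm9, for which no genome or annotation was used here, and the files hold no gene names. The genotype and the cell type could therefore not be checked against genes, and no gene or sequence is given for a region.

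In ATAC-seq a transposase cuts and tags DNA that is not wrapped in nucleosomes. Promoters and enhancers that are bound by transcription factors appear as clusters of such cuts, and the read number over a region is taken as its accessibility. Regulatory T cells depend on the transcription factor Foxp3, and Flicr is a long noncoding RNA gene beside Foxp3 that was studied for its effect on Foxp3 expression.

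The libraries held 19514512 to 41809276 reads, of which 24.2% to 35.1% fell into regions. Flicr WT replicate 1 had the lowest share of reads in regions and the other libraries had 31.1% or more. RPKM, reads divided by region length and by library reads, do not adjust for this share. Results that compare the genotypes are given as deposited, and also with the RPKM of each library scaled to equal reads in regions.

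The narrow regions held very few reads. The median narrow region had 16 and 7 reads in replicates 1 and 2 of Flicr KO, and 8 and 12 reads in those of Flicr WT. The mid-width regions had medians of 76, 34, 38 and 55 reads in the same order. The 2 deeper libraries, Flicr KO replicate 1 and Flicr WT replicate 2, had the higher medians in both classes. Counting error alone gives 7 reads an exact 95% Poisson interval of 2.81 to 14.4 and 16 reads one of 9.15 to 26.0. These intervals take reads as independent and cover counting error only. Between 81.8% and 90.4% of the narrow read numbers were even, a pattern that counting both mates of a read pair gives, and intervals from reads are too short where mates are counted singly.

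Scaled for depth, the medians were 1.53 and 1.43 RPKM in KO and 1.09 and 1.48 RPKM in WT, where 1 read in a narrow region is worth 0.0957 to 0.205 RPKM. For mid-width regions they were 3.37 and 3.30 RPKM in KO, and in WT 2.41 and 3.16 RPKM. The narrow median was the lower in 4 of 4 libraries (exact two-sided paired permutation p = 0.125, the smallest that 4 libraries allow). Only 671 of the narrow regions (2.55%) reached a mean of 5 RPKM, against 30.6% of the mid-width ones. Every library had at least 10 reads in 4023 narrow regions (15.3%) and in 82.1% of the mid-width regions.

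**Figure D1:**
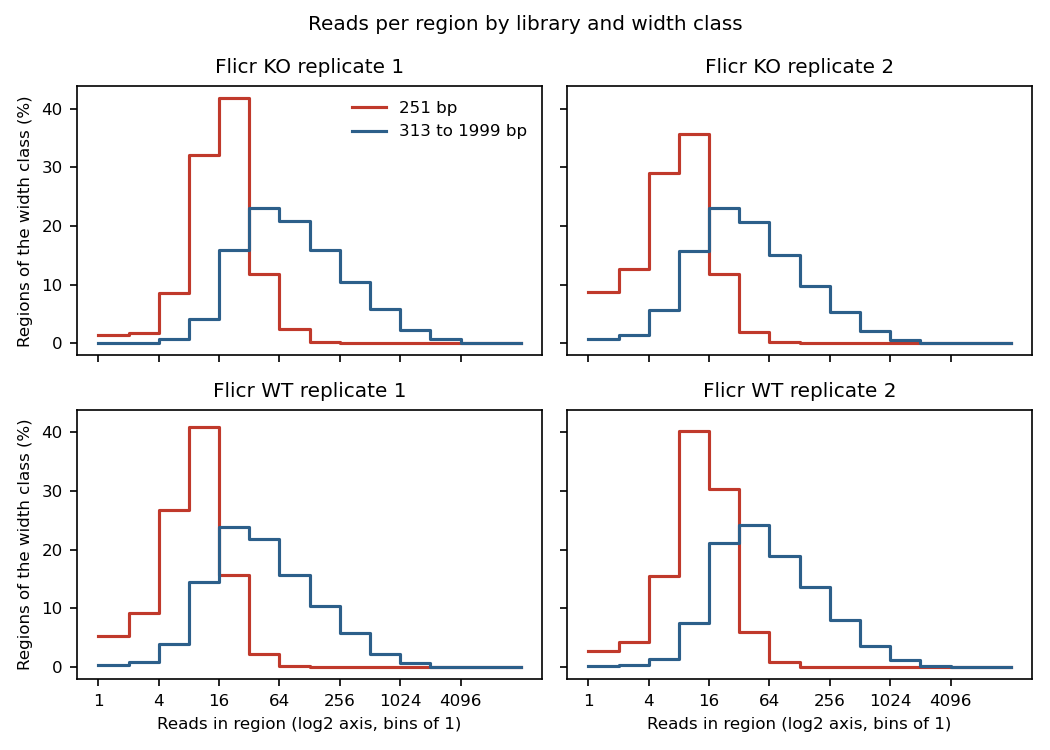
Share of the regions of each width class (vertical axis, percent) by the number of reads in the region (horizontal axis, log2 scale in bins of 1), in each of the 4 libraries. The narrow regions (red) sit to the left of the mid-width regions (blue) in every library, with medians of 7 to 16 reads against 34 to 76.

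Although they are 31.2% of all regions, the narrow ones took only a small part of the reads. They held 3.65% and 3.50% of the region reads in the KO libraries and 3.73% and 3.88% in the WT libraries. Both WT libraries lay above both KO libraries in this share, by 0.227 percentage points in the mean (KO 3.58% ± 0.106, WT 3.80% ± 0.102, SD, n = 2 each). By exact two-sided permutation over libraries p was 0.33, the smallest that 2 libraries against 2 allow. As a share of all library reads the genotypes overlapped, with 1.28% and 1.19% in KO and 0.905% and 1.21% in WT (exact permutation p = 0.667).

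No value is under 1 read, and whether a 1 stands for an empty region is not given in the sources used here. In narrow regions this value occurred in 1.37% of the regions of Flicr KO replicate 1, 8.67% of Flicr KO replicate 2, 5.25% of Flicr WT replicate 1 and 2.67% of Flicr WT replicate 2. The order follows the depth of the libraries and not the genotype. In mid-width regions the shares were 0.0489% to 0.676%, lower in 4 of 4 libraries. Mid-width regions are longer by rule and so hold more reads at equal RPKM, so this difference is no test of the classes. At least 1 library was at 1 read in 4382 narrow regions (16.6%). Both KO libraries were at 1 read in 46 narrow regions and both WT libraries in 50. No narrow region was at 1 read in all libraries, and in 8 of them 3 libraries were at 1 read and the fourth was higher.

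Reads and the correlation of replicates rose with width over the few widths compared here. Regions of the widths between them were not compared. The 9574 regions just outside the bound, of 313 to 318 bp, had a median of the 4-library mean of 24.0 reads, against 10.5 reads for the narrow regions. Regions of 375 to 380 bp had 41.5 reads and those of 437 to 442 bp had 66.6. Pearson's correlation of log2(RPKM + 1) rose over these 4 widths from 0.372 to 0.768, 0.854 and 0.913 for the KO replicates, and from 0.318 to 0.734, 0.834 and 0.892 for the WT replicates. The points are regions that share their libraries and depth, so the correlations are descriptions. They also depend on the range of levels over regions, which was not matched between widths. The share of regions in which 1 library had at least 2 times the RPKM of each other library fell over the same widths from 17.2% to 6.65%, 3.75% and 1.23%.

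Replicates agreed poorly in the narrow regions. For the values that follow and for the genotype tests, regions with a mean under 1.01 RPKM, the 5th percentile of all regions, were left out. This removed 2997 narrow regions (11.4%) and kept 23338, and kept 52000 mid-width regions. Pearson's correlation was 0.367 for the KO replicates and 0.305 for the WT replicates, against 0.899 and 0.885 in mid-width regions. Between a KO and a WT library it was 0.297 to 0.330 in narrow regions, a range that overlaps that of the replicates. The classes differ in reads. At a mean of 10 to under 20 reads the replicate correlations were −0.104 (KO) and −0.093 (WT) in narrow regions and −0.105 and −0.107 in mid-width ones. At 20 to under 40 reads they were −0.003 and 0.076, against 0.339 and 0.263. Such bins narrow the range of levels, on which correlations depend.

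After centring the libraries on their medians, the median absolute difference of log2(RPKM + 1) between replicates was 0.509 for KO and 0.477 for WT in narrow regions, and 0.269 and 0.283 in mid-width regions. Across genotypes the narrow regions differed by 0.483 to 0.528. The ranges within and across genotypes overlap in the narrow regions. At a mean of 10 to under 20 reads the classes were closer. The replicate differences were then 0.531 (KO) and 0.483 (WT) in narrow regions and 0.441 and 0.400 in mid-width ones. No test was made of these values, because the 6 pairs of libraries share their members.

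**Figure D2:**
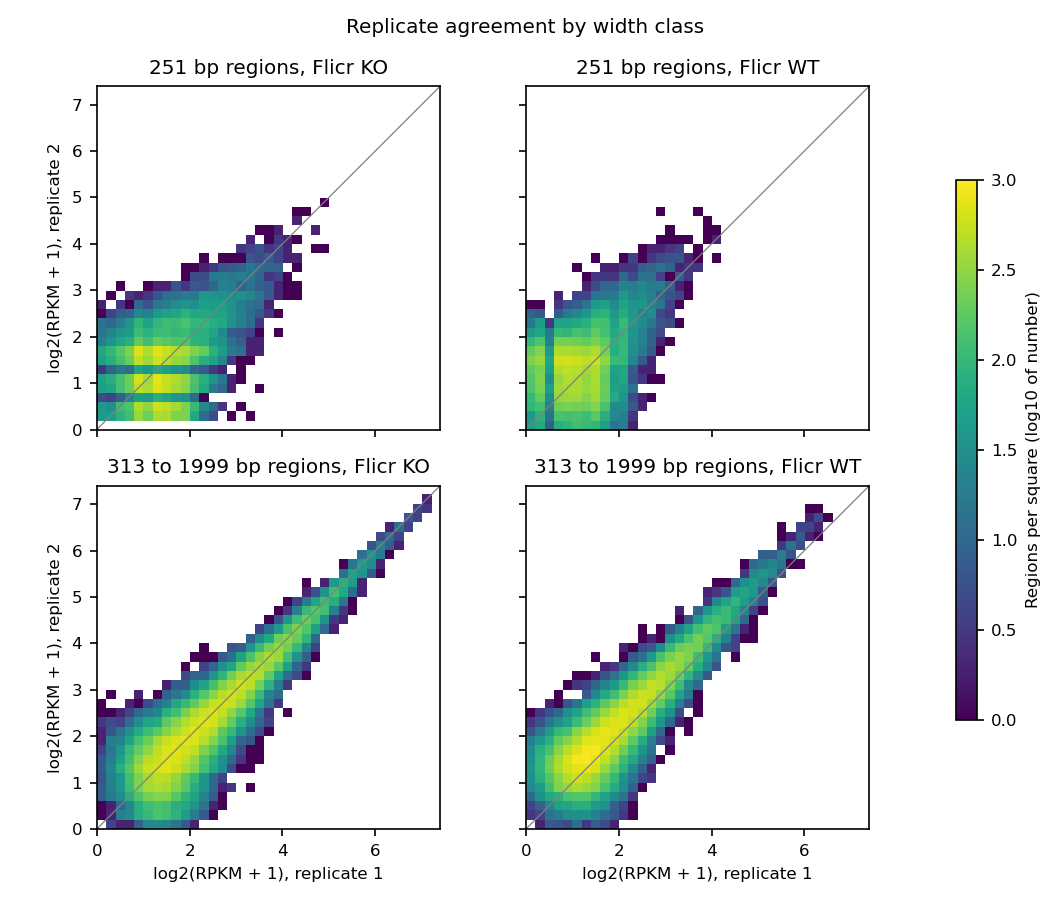
Number of regions (colour, log10) by log2(RPKM + 1) in replicate 1 (horizontal axis) and replicate 2 (vertical axis), for narrow regions (top) and mid-width regions (bottom), KO left and WT right, before the filter. The narrow regions form a cloud near the origin (Pearson's correlation 0.372 in KO, 0.318 in WT), and the wider ones follow the diagonal line of equality.

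Relative to counting error, the replicate spread of narrow and mid-width regions was similar. The squared difference between 2 replicates was divided by the variance that counting error alone would give it, and the median over regions was set against the median for counting error alone, so that a ratio of 1 means no spread beyond counting. In narrow regions the ratio was 3.95 for the KO libraries and 3.80 for the WT libraries. In mid-width regions it was 4.06 and 4.33. Counted as read pairs in place of reads, the narrow ratios were 1.97 and 1.90 and the mid-width ratios 2.03 and 2.17. By that measure 13.5% of narrow regions in KO and 14.1% in WT differed by more than the 95% range of counting error, against 16.5% and 18.7% of mid-width regions.

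The same held within bins of mean reads per region. In regions with a mean of 10 to under 20 reads (12308 narrow, 8582 mid-width), the ratio per read was 4.15 for KO and 3.71 for WT in narrow regions and 3.82 and 3.74 in mid-width ones. With 20 to under 40 reads (2613 narrow, 12628 mid-width) it was 4.10 and 3.53, against 3.91 and 3.86. With 40 reads and over, 634 narrow regions had 4.33 and 3.43 and 30745 mid-width regions had 4.23 and 4.87. That bin does not match the classes, as the median of the mean reads, before the filter, was 50.25 in narrow and 107 in mid-width regions. Neither class was higher throughout. Under 10 reads there were 7783 narrow regions but only 45 mid-width ones, too few to compare.

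**Figure D3:**
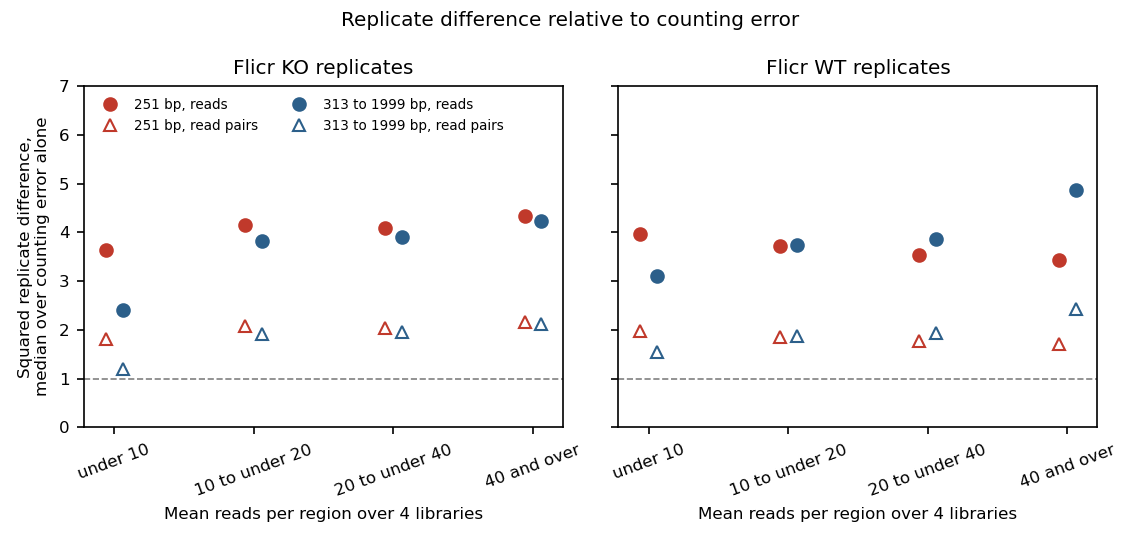
Median squared difference between replicates over that from counting error alone (vertical axis; 1, dashed, is counting error alone) by mean reads per region (horizontal axis), for narrow regions (red) and mid-width regions (blue), per read (filled circles) and per read pair (open triangles). From 10 reads up, both classes lie between 3.43 and 4.87 per read in both genotypes.

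A single library often stood above the others in narrow regions. In 4531 of the 26335 (17.2%), 1 library had at least 2 times the RPKM of every other, against 3.67% of mid-width regions. Flicr KO replicate 1 was that library in 1584 regions, Flicr WT replicate 2 in 1407, Flicr KO replicate 2 in 1128 and Flicr WT replicate 1 in 412. Such regions thus occurred with every library as the highest, in both genotypes. The RPKM here are as deposited, and the part of counting error in these differences was not tested. At a mean of 10 to under 20 reads the shares were 15.5% of narrow and 11.9% of mid-width regions, and at 20 to under 40 reads 7.08% and 5.09%. At 40 reads and over they were 1.58% and 0.475%. The median narrow region had 20 reads in its highest library and 4 in its lowest. How regions were called is not given in the sources used here, and whether a region was called from 1 library was not tested.

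Narrow regions lay on every autosome and made up 30.6% to 33.0% of the regions of each chromosome. They were somewhat more spread out than mid-width regions. The median distance to the next region was 3067 bp, against 1866 bp, and 26.6% had another region within 1000 bp, against 36.5%. More than 50000 bp separated 1241 narrow regions (4.71%) from any other region, against 1.53% of mid-width ones. For 32.5% of the narrow regions the nearest region was itself narrow, close to the share of narrow regions in the files. The smallest distance of a narrow or mid-width region to the next region was 249 bp.

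The closest narrow pair, chr1:52443961-52444211 and chr1:52444461-52444711 (mm9), was 249 bp apart. The first had 2.68 and 2.46 RPKM in KO and 1.92 and 2.22 RPKM in WT, and the second had 2.87 and 3.69 RPKM in KO and 1.09 and 1.48 RPKM in WT. In both, the KO libraries were the higher ones as deposited, and neither passed the test (limma adjusted p 0.884 and 0.509). The log2 fold changes were 0.22 and 0.90 as deposited, and −0.011 and 0.68 with equal reads in regions. A wider region of the same stretch, chr1:52445073-52446134, had a mean of 10.1 ± 0.844 RPKM in KO (SD, n = 2), and in WT one of 8.92 ± 2.68 RPKM (SD, n = 2).

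The comparison of the genotypes asked whether the loss of Flicr went with a change of accessibility at these short elements. It was fitted with limma over all 80254 regions that passed the filter, and p-values were adjusted over all of them. At an adjusted p under 0.05, 4 of the 23338 tested narrow regions were higher in KO and 0 lower. That is 0.0171% of them, close to the 0.0187% of all tested regions called higher, while 0% of all regions were called lower. The narrow regions were 29.1% of the tested regions and 26.7% of the 15 called. At an unadjusted p under 0.05, 1713 narrow regions were higher (7.34%, against 8.22% of all regions) and 413 were lower (1.77%, against 0.842%). With RPKM scaled to equal reads in regions, limma called 0 narrow regions in either direction (0% of all regions in either), with 718 higher (3.08%, against 2.72%) and 1156 lower (4.95%, against 3.32%) at an unadjusted p under 0.05. Limma voom on the recovered read numbers called 0 narrow regions, while it called 0.0249% of all regions higher and 0.015% lower. Leaving out Flicr WT replicate 1 moved the count to 29 narrow regions higher (0.124%, against 0.197% of all regions) and 0 lower (against 0.00249%). Without Flicr WT replicate 2 there were 620 higher (2.66%, against 8.02%) and 9 lower (0.0386%, against 0.0224%). With 1 or the other KO library left out, limma called 0 narrow regions in either direction, and of all regions 0% without Flicr KO replicate 1, and 0.00125% higher and 0% lower without Flicr KO replicate 2. In these fits the lone library is assumed to vary like the pair of the other genotype.

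The narrow regions moved toward KO less than the others on the deposited scale. Their median log2 fold change was 0.13, against 0.23 for mid-width regions and 0.21 for all tested regions, and 59.5% of them were above 0, against 74.9% and 71.0%. With equal reads in regions the medians were −0.07, −0.03 and −0.03, and 45.1%, 46.3% and 46.0% were above 0. Without Flicr WT replicate 1 the narrow median was −0.0029, and without Flicr WT replicate 2 it was 0.26. The median standard error of a fold change was 0.463 in narrow regions and 0.355 in mid-width ones, and the 4 called regions had log2 fold changes of 1.87 to 2.29.

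For each library, the narrow median of log2(RPKM + 1) was set against the mid-width median. The narrow minus mid-width difference was −0.715 and −0.742 in the KO libraries and −0.641 and −0.633 in the WT libraries. Both KO libraries had the larger gap, with a KO minus WT mean of −0.0915 (exact two-sided permutation p = 0.33, the smallest possible). With equal reads in regions this KO minus WT mean was −0.0405 and the genotypes overlapped (exact permutation p = 0.667). With cyclic loess it was −0.0042, and quantile normalization turned the direction, to 0.0061. Within bins of mean reads from 10 reads up, the narrow fold changes were the higher ones. At 10 to under 20 reads the median log2 fold change as deposited was 0.13 in narrow and 0.07 in mid-width regions. At 20 to under 40 reads these were 0.24 and 0.15, and at 40 reads and over 0.33 and 0.27. With equal reads in regions the narrow medians were −0.060, −0.011 and 0.047 over these bins. The mid-width medians were then −0.117, −0.061 and −0.004. At 40 reads and over, mid-width regions held more reads (median of the mean 107, against 50.25), so the classes are not matched there. Under 10 reads the median as deposited was 0.05 in 7783 narrow regions. From 10 reads up the fold change rose with the read number in both classes, and its part in the difference between them was not tested.

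**Figure D4:**
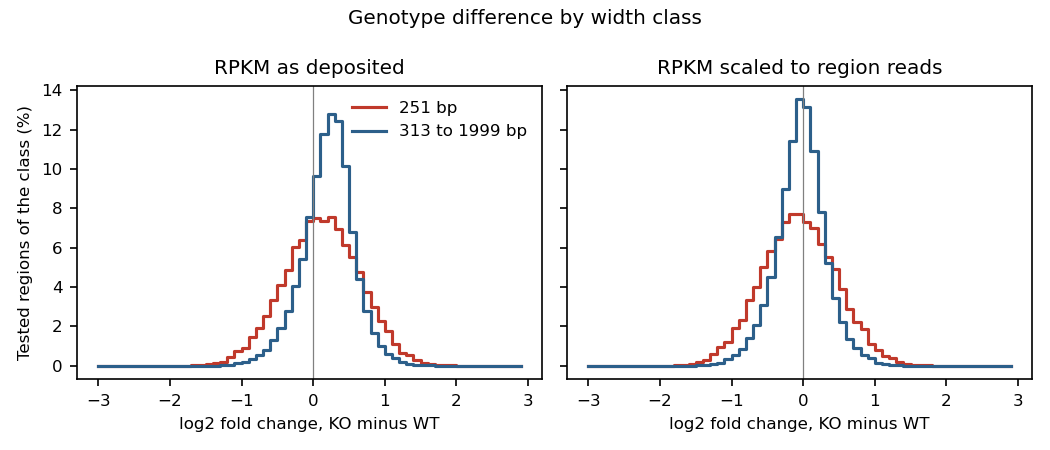
Share of the tested regions of each class (vertical axis, percent) by log2 fold change of KO minus WT (horizontal axis, bins of 0.1), as deposited (left) and with RPKM scaled to equal reads in regions (right). The narrow regions (red) spread more widely than the mid-width ones (blue), with medians of 0.13 and 0.23 on the left and of −0.07 and −0.03 on the right.

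The KO pair was entirely above the WT pair in 5261 narrow regions, 22.5% of those tested, against 33.2% of all regions, and entirely below it in 2823 (12.1%, against 7.81%). With equal reads in regions these became 3585 (15.4%, against 15.8%) and 4571 (19.6%, against 19.4%). After scaling the shares of the narrow regions were therefore near those of all regions.

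The region with the smallest p among the narrow ones was chr6:38747024-38747274. It had 84 and 40 reads in the KO libraries and 11 and 8 in the WT libraries, or 8.04 and 8.20 RPKM in KO and 1.51 and 0.99 RPKM in WT. The KO libraries were close to each other and far above the WT libraries, whose exact 95% Poisson intervals ran from 5.49 to 19.7 reads and from 3.45 to 15.8 reads. The log2 fold change was 2.03 (SE 0.33, limma adjusted p = 0.00522), and 1.77 with equal reads in regions. The nearest wider region lay 1480 bp away and did not pass the test, with 1.43 ± 0.293 RPKM in KO (SD, n = 2) and 1.20 ± 0.308 RPKM in WT (SD, n = 2).

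Next came chr13:110309747-110309997, with 7.65 and 6.15 RPKM in KO and 1.64 and 0.25 RPKM in WT. The WT libraries rested on 12 and 2 reads and lay further apart in ratio than the KO libraries. The log2 fold change was 2.12 (SE 0.37, limma adjusted p = 0.00963). Its nearest wider region, 26479 bp away, had 5.29 ± 1.68 RPKM in KO, and in WT 4.89 ± 0.0813 RPKM (SD, n = 2 each).

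At chr5:31232525-31232775 the KO libraries had 40 and 26 reads (3.83 and 5.33 RPKM) and each WT library had 1 read, the lowest value of the files. The genotypes were apart, and the region was called (limma adjusted p = 0.0276). With each WT library set to 3 reads, the KO mean was 11.7-fold the WT mean. This fold is not a lower bound, as it leaves out counting error. At chr18:88943567-88943817 the KO libraries had 5.93 and 7.17 RPKM and the WT libraries 0.55 and 1.73 RPKM, on 4 and 14 reads. Here too no WT library reached a KO library, and the log2 fold change was 1.87 (SE 0.36, limma adjusted p = 0.0288). Around all 4 called regions the nearest wider region, 1480 to 26479 bp away, was not called, with log2 fold changes of 0.07 to 0.58, or −0.21 to 0.29 with equal reads in regions, where 3 of the 4 were below 0. The 4 narrow regions had log2 fold changes of 1.66 to 2.12 with equal reads in regions, against 1.87 to 2.29 as deposited. Their calls were lost with equal reads in regions, with every other scaling between libraries, with log2 CPM, without limma's trend and robust options, with voom and when either KO library was left out.

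A further 6 regions made up the 10 of smallest p and missed the threshold, with limma adjusted p from 0.0524 to 0.0819. The largest fold of these was at chr4:34655955-34656205, with 7.65 and 3.69 RPKM in KO and 0.55 and 0.86 RPKM in WT. The most reads were at chr1:36191508-36191758, with 101 and 66 reads in KO and 30 and 32 in WT (9.66 and 13.5 RPKM against 4.11 and 3.95 RPKM). At chr19:30917849-30918099 the values were similar, with 96 and 66 reads in KO and 32 and 28 in WT. In all 6, neither WT library reached a KO library. The others were chr7:3330536-3330786 (log2 fold change 1.63), chr15:34169337-34169587 (1.81) and chr10:44048204-44048454 (1.75). Among narrow regions whose genotypes did not overlap, the 5 of largest fold held 3 of the called regions together with chr15:36810038-36810288 (1.97) and chr11:32390331-32390581 (1.92), where the WT libraries had 1 and 2 reads and 2 and 4 reads.

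None of the narrow regions that were lower in KO passed the test. The lowest fold change was at chr6:67345606-67345856, with 1 read in each KO library and 16 and 29 reads in the WT libraries (2.19 and 3.58 RPKM). With each KO library set to 3 reads, the WT mean was 6.395-fold the KO mean. At chr17:64580596-64580846 each KO library again had 1 read and the WT libraries had 12 and 32, a fold of 6.20 on the same terms. These folds are likewise not lower bounds. Both KO libraries were at the lowest value in these regions, and neither was called (limma adjusted p 0.260 and 0.334). The next were chr6:8377491-8377741 with 2 and 1 reads in KO and 12 and 35 in WT, chr16:30720926-30721176 with 2 and 1 against 18 and 24, and chr4:140962895-140963145 with 6 and 1 against 20 and 30. Their limma adjusted p ran from 0.220 to 0.299, and the wider region nearest to each of these 5 had a log2 fold change of 0.12 to 0.73 as deposited and of −0.17 to 0.49 with equal reads in regions, where 2 of the 5 were below 0.

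The most accessible narrow regions reached 18.8 to 22.3 RPKM in the mean, each above the level of at least 97.4% of all regions. At chr14:119426419-119426669, the highest, the values were 28.3 and 29.1 RPKM in KO and 15.1 and 16.8 RPKM in WT. Replicates agreed closely there and the genotypes did not overlap, but the log2 fold change of 0.81 (SE 0.23) did not pass (limma adjusted p = 0.234), and was 0.50 with equal reads in regions. Its nearest wider region, 13798 bp away, had 7.28 ± 0.296 RPKM in KO, and in WT 3.88 ± 0.873 RPKM (SD, n = 2 each).

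Other highly accessible ones varied between replicates. At chr16:49164530-49164780 the KO libraries had 29.3 and 13.9 RPKM and the WT libraries 6.84 and 26.2 RPKM, so that replicates differed more than genotypes did. At chr6:12210735-12210985 they had 26.2 and 18.9 RPKM in KO and 12.0 and 23.9 RPKM in WT, again with overlap. At chr3:7501845-7502095 the KO values of 21.2 and 25.01 RPKM lay above the WT values of 13.7 and 16.3 RPKM (limma adjusted p = 0.480). At chr2:98505188-98505438 the KO libraries as deposited were little above the WT libraries, with 19.2 and 21.7 RPKM against 17.4 and 17.0 RPKM (limma adjusted p = 0.778). In the order given in this paragraph, the log2 fold changes were 0.54, 0.37, 0.59 and 0.24 as deposited. With equal reads in regions they were 0.24, 0.05, 0.28 and −0.08, so that the direction turned at chr2:98505188-98505438.

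**Figure D5:**
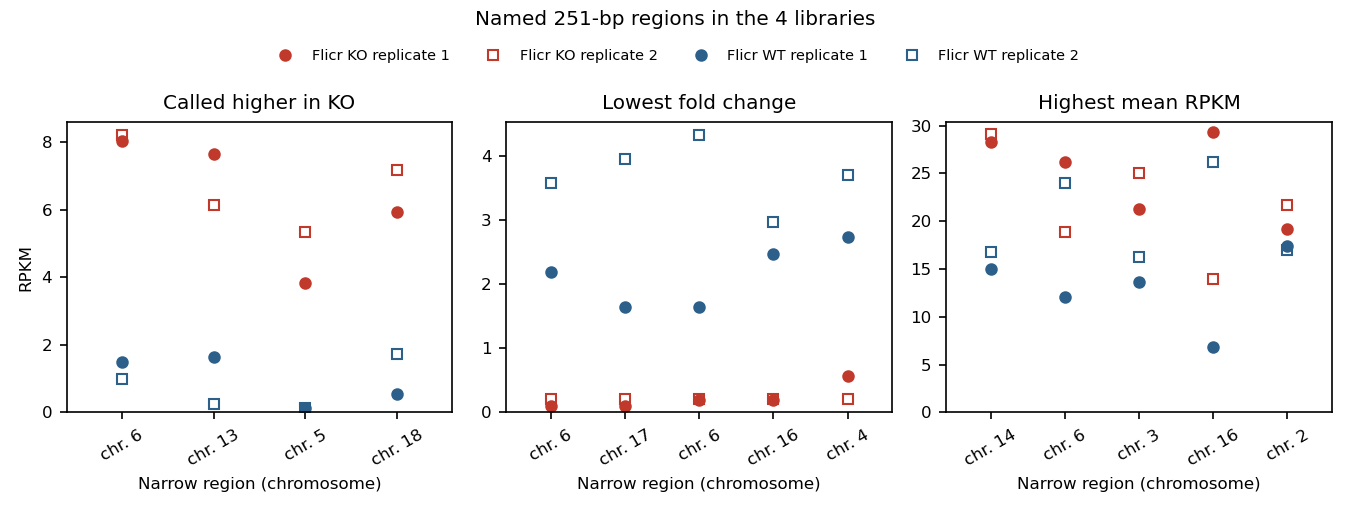
RPKM (vertical axis, from 0) of 14 narrow regions in the 4 libraries, the 4 called higher in KO, the 5 of lowest fold change and the 5 of highest mean RPKM, each in the order of the text or by mean. In the called regions both KO libraries (red) are at 3.83 RPKM or more and both WT libraries (blue) at 1.73 RPKM or less, and in the highest regions the genotypes overlap at 2 of 5.

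A narrow region and its nearest wider region showed little common movement between the genotypes. Among 4756 narrow regions with a tested wider region within 1000 bp, Pearson's correlation of the 2 log2 fold changes, with equal reads in regions, was 0.059, and 52.6% had the same sign. At more than 50000 bp, over 1973 narrow regions, these were 0.041 and 51.6%. In mid-width regions they were 0.103 and 55.1% within 1000 bp and 0.107 and 55.1% beyond 50000 bp. The points share their libraries and depth, and values this weak in sparse counts are given as a description. Narrow regions within 1000 bp of a wider one had a median of 1.34 RPKM and those beyond 50000 bp one of 1.53 RPKM. Of the 4 distance classes, the nearest had the lowest replicate correlations, 0.224 for KO and 0.135 for WT within 1000 bp, against 0.431 and 0.368 at 10000 to 50000 bp. The median absolute replicate differences were close, 0.509 for KO and 0.485 for WT within 1000 bp, against 0.497 and 0.477.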

How the data were processed

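The authors deposited, for each of the 4 libraries, the same regions with 1 RPKM value each, per the file headers. Per the submitters' processing notes the tools were Bowtie2, Picard 1.130, SAMtools, HOMER 4.6 and DiffBind, with build mm9. Their roles, read shifting, duplicate handling and the rules of region calling are not given in the sources used here. RPKM times the width less 1 gave whole multiples of 1 read in 100% of regions (tolerance 0.001 reads), where 250 bp is the length used for narrow regions, from which reads per region and library totals were worked out. Coordinates count from 1.

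Limma 3.58.1 (R 4.3.3) with trend and robust options was run on log2(RPKM + 1) over all regions with a mean at or above the 5th percentile, without a replicate block, and p-values were adjusted by Benjamini-Hochberg at a threshold of 0.05. On the log2(RPKM + 1) scale the fold of regions with low RPKM comes out too small. The fit was also run on simulated read numbers. There, changes were placed only in regions with a mean of 20 reads or more, and all libraries had the same share of reads in regions. That run therefore cannot show how the fit performs in most narrow regions, which hold fewer reads. Shares and medians were compared by exact permutation over libraries (scipy 1.17.1). Other scripts used Python 3.11.15, numpy 2.4.6, pandas 2.3.3 and matplotlib 3.10.9. Alternatives covered scaling, pseudocount, filter, unit, test, threshold, chromosome X, each library left out and a replicate block. Scaling RPKM to equal medians and leaving out libraries for the replicate measures were chosen after seeing the data. Read shares without a filter were planned as the alternative to the filter at the 5th percentile, and the choice to report them in its place was made after seeing the data.

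Narrow regions named in the text were the 10 of smallest p, the 5 of largest and of lowest fold change among those whose genotypes did not overlap, the 5 of highest mean and the closest pair. The rule's 3 narrowest could not be named, as all have the same width. The members and rules were chosen with earlier results of these data known.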

Additional observations from a re-analysis of the deposited data

How the results depend on the processing

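Reads per narrow region limit all of these results, with medians of 7 to 16 reads. Against 4 narrow regions higher in KO, 0 were called with median centring, quantile normalization, total scaling, cyclic loess, RPKM scaled to equal medians, log2 CPM, limma without trend and robust options, and voom. There were 8 unfiltered, 2 when regions under the 25th percentile were dropped, 11 at adjusted p under 0.10, 5 with a pseudocount of 0.5, 4 with one of 5, and 4 with chromosome X. With 1 library removed, 0 to 620 were higher and 0 to 9 lower, and all other settings called 0 lower. With the replicate number as a block 17 were higher. The numbers were not taken as pairs in the reported fit. Deviations of KO and WT libraries of the same number had a correlation of 0.0056 over narrow regions. With so few reads per region, this value cannot show whether the libraries were paired. The narrow median log2 fold change of 0.13 became −0.065 (total scaling) and −0.091 (voom), and −0.0029 to 0.257 when a library was left out. The KO minus WT difference of the narrow against the mid-width median, −0.0915, became −0.0405 with total scaling, −0.0042 with cyclic loess and 0.0061 with quantile normalization. It was −0.105 to −0.078 without a library. The share of region reads differed by −0.302 to −0.152 points without a library, and by −0.048 with a filter at the 25th percentile. The replicate difference, 0.493 as the mean of both genotypes, was 0.616 with a pseudocount of 0.5 and 0.191 with one of 5, and 0.477 to 0.509 with 1 genotype's pair. The ratio to counting error, 3.88, was 4.05 with the filter at the 25th percentile, 1.94 per read pair, and 3.80 to 3.95 with 1 pair. The setting with only the most frequent width equals the reported one, as all narrow regions share it. Of 408 refits of the named regions, 328 left sign and call as they were, 42 ended a call, 31 made one, and 7 turned the sign of an uncalled region: chr6:12210735-12210985 (−0.10) and chr16:49164530-49164780 (−0.35) without Flicr WT replicate 1 (up to 0.83 and 1.44 without Flicr WT replicate 2), chr2:98505188-98505438 with quantile (−0.12), total (−0.078), loess (−0.12) and voom (−0.089), and chr1:52443961-52444211 with total scaling (−0.011). The cause of these changes was not tested.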

Other observations

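On chromosome X, which the width rule leaves out, 786 regions were 0.251 kb or less wide, 36.1% of the regions of that chromosome, against 30.6% to 33.0% on the autosomes.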
